A study of Mus musculus with 4 samples.

Results

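The 10 genes described here encode the heat shock chaperones of the cytosol and their closest partners: Hspa1a, Hspa1b, Hspa8, Dnajb1, Hsp90aa1, Hsph1, Hspb1, Hsf1, Bag3 and Hspe1. They were chosen by name, and every non-control probe whose RefSeq accession belongs to one of them was read, which gave 18 probes for 10 genes among 37516 probes and 16524 genes tested. The samples were cerebella of mice at postnatal day 28 on a C57BL/6 background, 2 control and 2 knockout (KO), measured on single-colour Agilent arrays. Controls carried floxed alleles of Derl2 (Derl2 flox/flox), the gene of Derlin-2, which sits in the membrane of the endoplasmic reticulum (ER) and helps to export misfolded proteins from it for degradation. KO mice came from crosses of Derl2 flox/flox mice with a nestin-promoter Cre line; this promoter drives Cre in precursors of neurons and glia, from which microglia do not arise. The labels describe no group that carried Cre without the floxed alleles, so an effect of Cre and of the deletion cannot be told apart. They also do not say whether each sample was a single animal, and p-values then measure only the spread between these samples.

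Cells answer misfolded protein by compartment. In the cytosol and nucleus, misfolded protein draws chaperones away from the transcription factor HSF1, which then forms trimers, binds heat shock elements in DNA and raises Hsp70, Hsp90, Hsp40, Hsp110 and small heat shock proteins. In the ER, misfolded protein draws the chaperone BiP (Hspa5) away from the stress sensors IRE1, PERK and ATF6, which raise ER chaperones through other DNA elements. Because Derlin-2 acts at the ER membrane, the heat shock transcripts were read to look for a folding response outside the ER as well. The name of the set does not hold for every gene in it: Hspe1 encodes Hsp10, the lid of the Hsp60 chaperonin of the mitochondrial matrix, and is described here with its mitochondrial partner Hspd1.

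The start regions were searched for the known DNA elements of both responses. The 150 bases before the annotated start are given for the stress-inducible Hsp70 copies, for the small heat shock protein, for Hsp10 and, as the ER counterpart, for BiP, from RefSeq on build GRCm38.p6, 5′ to 3′ on the strand of the gene. Capitals mark matches to GAANNTTC or TTCNNGAA, the 2-unit cores of a heat shock element, or in Hspa5 to the ER stress response element (CCAAT, then 9 bases of any kind, then CCACG).
Hspa1a (chr17:34972157-34972306, minus strand): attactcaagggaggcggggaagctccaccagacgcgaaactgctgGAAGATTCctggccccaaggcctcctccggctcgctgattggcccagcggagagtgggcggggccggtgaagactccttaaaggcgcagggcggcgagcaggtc
Hspa1b (chr17:34959239-34959388, minus strand): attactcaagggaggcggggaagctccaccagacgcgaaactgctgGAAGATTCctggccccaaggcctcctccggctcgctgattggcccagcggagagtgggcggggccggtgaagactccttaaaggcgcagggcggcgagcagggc
Hspb1 (chr5:135887769-135887918, plus strand): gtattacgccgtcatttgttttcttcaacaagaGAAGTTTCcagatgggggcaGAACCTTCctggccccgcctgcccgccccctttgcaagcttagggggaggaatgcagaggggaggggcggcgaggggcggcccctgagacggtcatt
Hspe1 (chr1:55087998-55088147, plus strand): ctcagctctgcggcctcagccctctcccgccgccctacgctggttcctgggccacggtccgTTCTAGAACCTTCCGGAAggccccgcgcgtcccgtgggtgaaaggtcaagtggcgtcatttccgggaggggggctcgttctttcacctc
Hspa5 (chr2:34771940-34772089, plus strand): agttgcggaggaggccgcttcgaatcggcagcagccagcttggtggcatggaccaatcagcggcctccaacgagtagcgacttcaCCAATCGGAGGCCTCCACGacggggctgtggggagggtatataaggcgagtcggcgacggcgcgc

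Hspa1a and Hspa1b were identical at 149 of 150 positions of this stretch, with the same match 104 bases upstream of the start. In windows of 300 bases, from 250 before to 50 after the start, 7 of the 10 heat shock genes had a sequence in the table (Hspa8, Hsp90aa1 and Hsf1 had none). GAANNTTC, which reads the same on both strands, was found in 6 of the 7, against 9.04% of 27025 genes in the table and 0 of 14 ER chaperone genes. Counting TTCNNGAA as well, the matching shares were 6 of 7, 17.0% of all genes and 1 of 14. The 3-unit form, in which a further GAA or TTC follows either core after 2 bases, was found in Hsph1 and Hspe1 and in 0.662% of all genes. In Bag3 the GAANNTTC match, and in Hsph1 the GAANNTTC and 3-unit matches, lay after the start, within the transcript. Hsph1 also had TTCNNGAA upstream of the start. The ER stress response element, searched on both strands, was found in 7 of the 14 ER chaperone genes, in 0 of the 7 heat shock genes and in 0.137% of all genes. A match is a run of letters and shows no binding, and the cores overlap in Hspe1 and Hsph1.

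Signals are given as log2 of the processed signal minus the 75th percentile of the array, so a difference of 1 is a 2-fold difference, and signals of different probes cannot be ranked against each other. All 72 spots of the 18 heat shock probes were well above background, none was flagged or saturated, and none lay on the patch of raised local background (1441 spots) found on the array of control 1. Derl2, read as a check of the labels, stood in KO at 37.6% and 30.2% of control on its 2 probes, and the defining markers of the cerebellum were present, 8 of 8 for granule cells and 6 of 6 for Purkinje cells. Choroid plexus markers were far higher on the array of control 2 than on that of control 1, by a median of 3.89 on the log2 scale over 8 genes, whereas the heat shock genes differed between both controls by −0.25 to 0.28. All 4 arrays lay on 1 slide, with controls and knockouts at different positions, so position and group cannot be told apart. In whole tissue, fewer cells of a type and less RNA per cell cannot be told apart.

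As a group the heat shock genes lay where the average gene lay. On the brightest probe of each gene, the median log2 difference, KO minus control, was −0.06 over the 10 genes and −0.06 over all 16524 genes, with single genes between −0.27 (Hsph1) and 0.03 (Hspa1b). Of the 10, 3 were higher and 7 lower in KO, and 63.9% of all genes were lower. This small downward offset depends on the scaling: when arrays were scaled to spike-in probes, both medians were 0.02. By limma, 0 of the 10 passed an adjusted p of 0.05 and 0 had an unadjusted p under 0.05. Over all genes 0% passed the adjusted threshold, while 8.81% had an unadjusted p under 0.05 (3.16% higher and 5.65% lower in KO). Separate groups, meaning both KO values on the same side of both control values, were seen in 0 genes for higher and in 2 (Hsph1 and Hspe1) for lower, against 13.8% and 32.2% of all genes, or 46% in either direction. With only 2 samples a group, a difference that misses the threshold does not show that levels were equal, so 95% intervals from the fit are given below.

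**Figure D1:**
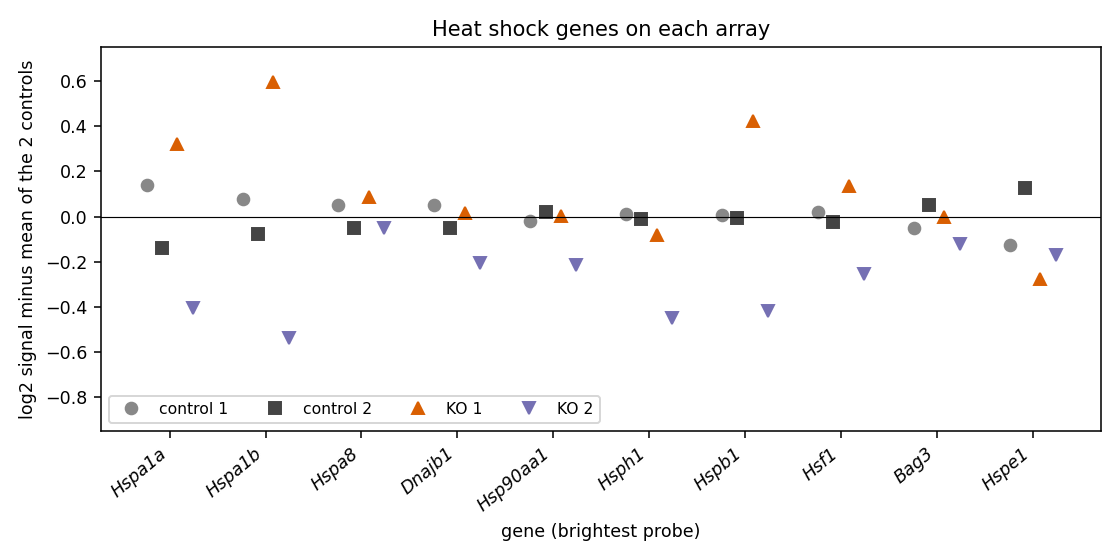
Log2 signal of each heat shock gene (brightest probe) on the 4 arrays, minus the mean of the 2 controls; each symbol is 1 array. The controls lie near 0, KO 2 lies below 0 for all 10 genes and KO 1 lies above KO 2 for all but Hspe1. Of all genes tested, 61.5% lie below 0 in KO 2, and KO 1 lies above KO 2 in 50.4%.

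Hspa1a and Hspa1b encode the inducible Hsp70, kept low in unstressed tissue and among the first transcripts that HSF1 raises. Hspa1a had log2 signals of 1.41 and 1.13 in controls 1 and 2 versus 1.59 and 0.86 in KO 1 and KO 2. The KO values thus bracketed both control values. The log2 difference was −0.04 (SE 0.28; 95% interval −0.80 to 0.72; limma adjusted p 0.956), and 0.04 under spike-in scaling. Hspa1b had log2 signals of −1.11 and −1.26 in controls 1 and 2 versus −0.59 and −1.72 in KO 1 and KO 2. Again 1 KO sample lay above both controls and the other below, with a log2 difference of 0.03 (SE 0.40; 95% interval −1.05 to 1.11; limma adjusted p 0.979). As a ratio of KO to control, the Hspa1b interval ran from 0.483-fold to 2.16-fold, so neither a moderate rise nor a moderate fall of these copies could be told from no change. Both genes are near-identical copies, so each probe may also have bound RNA of the other.

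Hspa8 encodes Hsc70, the constitutive Hsp70, which folds new proteins and uncoats clathrin vesicles, also at synapses. On the brightest of its 4 probes (A_55_P2069721) the log2 signal was 6.15 and 6.05 in controls 1 and 2 versus 6.19 and 6.05 in KO 1 and KO 2. The groups overlapped, and the log2 difference of 0.02 (SE 0.11) had a 95% interval of −0.29 to 0.32, which is 0.82-fold to 1.25-fold. The other 3 probes differed by 0.06, −0.04 and −0.06, each with overlapping groups; both negative values turned positive under spike-in scaling (0.04 and 0.02). The intervals of the 4 probes together covered −0.36 to 0.38. That range leaves out the difference of 0.82 measured on the brightest probe of the ER counterpart Hspa5, whose own 95% interval was 0.39 to 1.24. The dimmer Hspa5 probes differed by 0.95 (95% interval 0.24 to 1.66) and 0.91 (0.20 to 1.62). Both of these intervals overlapped the Hspa8 range.

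The co-chaperones that steer Hsp70 were read next. Dnajb1 (Hsp40), which delivers substrates and starts ATP hydrolysis by Hsp70, had log2 signals of 4.26 and 4.15 in controls 1 and 2 versus 4.22 and 4.0 in KO 1 and KO 2. The KO 1 value fell between the controls and the KO 2 value below them, for a log2 difference of −0.10 (SE 0.13; 95% interval −0.44 to 0.25; limma adjusted p 0.748). Bag3, a nucleotide exchange factor that links Hsp70 to selective autophagy, had log2 signals of 2.28 and 2.38 in controls 1 and 2 versus 2.32 and 2.20 in KO 1 and KO 2. Its groups overlapped too, with a log2 difference of −0.06 (SE 0.11; 95% interval −0.36 to 0.23), and 0.02 under spike-in scaling.

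Hsph1 encodes Hsp110, an exchange factor that works with Hsp70 and Hsp40 to dissolve aggregates. On its brightest probe (A_55_P2176963) the log2 signal was 3.55 and 3.53 in controls 1 and 2 versus 3.46 and 3.09 in KO 1 and KO 2. Both KO values lay below both controls, and the log2 difference was −0.27 (SE 0.16; 95% interval −0.69 to 0.16; limma adjusted p 0.498). The second probe had 1.83 and 1.84 in controls 1 and 2 versus 1.85 and 1.49 in KO 1 and KO 2, so there the KO 1 sample was not lower. The third, a dim probe near −4.72, had a log2 difference of −0.10 and controls 0.86 apart. Without KO sample 1 the brightest probe stood at −0.45, and without KO sample 2 at −0.08.

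Hsp90aa1 encodes the stress-inducible form of Hsp90, which matures kinases and steroid receptors. Its 2 probes gave different pictures. On the brighter probe (A_55_P2740832) the log2 signal was 5.70 and 5.74 in controls 1 and 2 versus 5.72 and 5.51 in KO 1 and KO 2. These groups overlapped, with a log2 difference of −0.11 (SE 0.12; 95% interval −0.43 to 0.22). On the other (A_55_P2796341) it was 5.60 and 5.58 in controls 1 and 2 versus 5.33 and 5.21 in KO 1 and KO 2. Here both KO values lay below both controls, with a log2 difference of −0.32 (SE 0.10; 95% interval −0.60 to −0.04; unadjusted p 0.0327, limma adjusted p 0.327). On this probe the difference was −0.26 after quantile normalization (unadjusted limma p 0.063) and −0.24 under spike-in scaling (unadjusted limma p 0.088). The groups stayed separate in both settings. The constitutive paralogue Hsp90ab1 had a log2 difference of −0.10 (SE 0.11). None of these probes was higher in KO.

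Hspb1 encodes Hsp27, a small heat shock protein that holds unfolded proteins and is found in glia and vessels as well as in stressed neurons. Its controls were nearly equal, at log2 signals of 3.19 and 3.17, and its knockouts were 3.60 and 2.76. One KO sample was thus 0.42 above and the other 0.42 below the control mean, and the group difference was 0.0026 (SE 0.30; 95% interval −0.81 to 0.81). Hsf1 encodes the transcription factor itself, which is controlled mostly through its protein rather than its transcript. Its log2 signal was 1.69 and 1.65 in controls 1 and 2 versus 1.81 and 1.42 in KO 1 and KO 2. Those values overlapped, with a log2 difference of −0.06 (SE 0.16; 95% interval −0.50 to 0.38), and 0.03 under spike-in scaling.

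**Figure D2:**
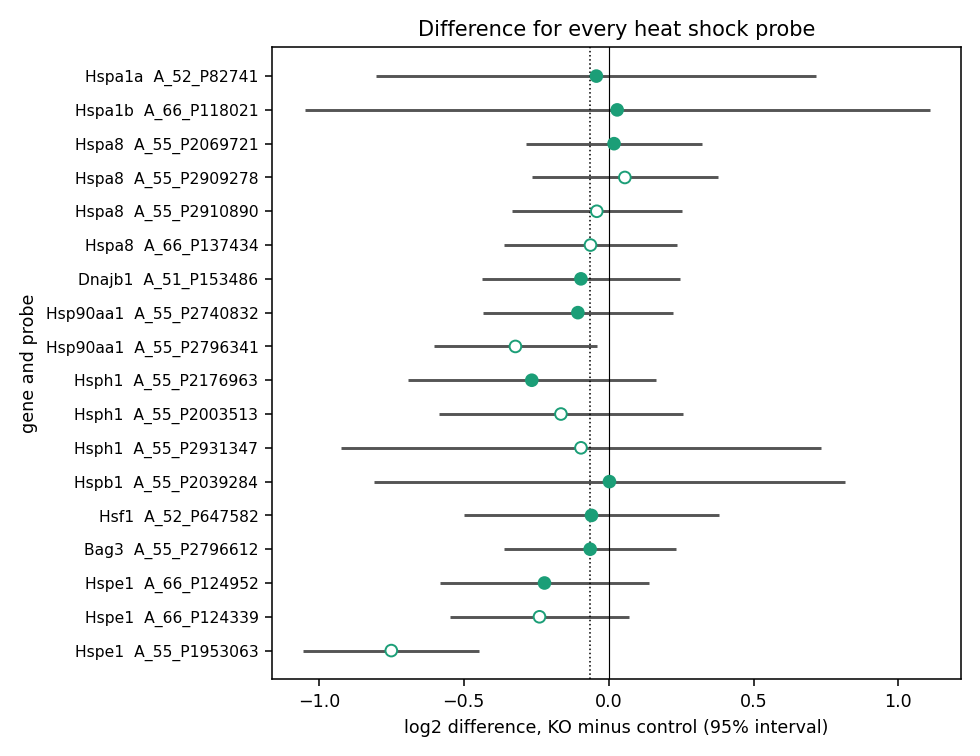
Log2 difference, KO minus control, for each of the 18 heat shock probes with its 95% interval from limma; filled circles are the brightest probe of a gene and the dotted line is the median of all genes (−0.06). The intervals of 2 probes, 1 of Hsp90aa1 (−0.32) and 1 of Hspe1 (−0.75), lie wholly below 0.

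All 3 probes of Hspe1 were lower in KO. Its brightest probe (A_66_P124952) had log2 signals of 4.43 and 4.68 in controls 1 and 2 versus 4.28 and 4.39 in KO 1 and KO 2. The second (A_66_P124339) had 3.55 and 3.72 in controls 1 and 2 versus 3.36 and 3.43 in KO 1 and KO 2. The third and dimmest (A_55_P1953063) had −0.24 and −0.41 in controls 1 and 2 versus −1.08 and −1.07 in KO 1 and KO 2. On each probe both KO samples lay below both controls, although on the brightest the groups overlapped after quantile normalization and under spike-in scaling. The log2 differences were −0.22 (SE 0.13), −0.24 (SE 0.11) and −0.75 (SE 0.11), with limma adjusted p of 0.502, 0.427 and 0.273. The third probe had the smallest unadjusted p of the 18, 0.00196, and its KO signal was 59.5% of control, a larger difference than on the other 2 probes, whose KO signal was 85.8% and 84.7%. The brightest probe was lower in all 16 settings tried at the probe level, the main one included, with separate groups in 14 and an unadjusted p under 0.05 in 0. The third was lower in all 16, each time with separate groups and an unadjusted p under 0.05, and its limma adjusted p ran from 0.122 to 0.572.

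Hspd1, the Hsp60 that Hsp10 caps, is the neighbour of Hspe1 on the opposite strand, with 2 annotated starts in the table. One lies 216 bases before the Hspe1 start and the other 95 bases within Hspe1. The run of heat shock elements printed in capitals for Hspe1, TTCTAGAACCTTCCGGAA, lies 89 bases upstream of its start and also within the window of the first of these Hspd1 starts, and not within that of the other. Both genes have pseudogene copies elsewhere in the genome, whose RNA the probes may also bind. The 2 probes of Hspd1 had log2 differences of −0.18 (SE 0.11) and −0.27 (SE 0.11), both with separate groups. All 5 probes of this chaperonin pair were therefore lower in both KO samples, without any of them passing the adjusted threshold. Genes of the mitochondrial chaperone list, which holds Hspd1 but not Hspe1, did not all lie on that side. Over its 10 genes, Hspd1 included, the median was −0.09 (−0.0095 under spike-in scaling). At an unadjusted limma p under 0.05 there were 1 lower and 0 higher, against 5.65% and 3.16% of all genes. Their groups were separate in 5 for lower and 2 for higher, against 32.2% and 13.8%. Trap1, the mitochondrial Hsp90, had −0.29 (SE 0.11, limma adjusted p 0.353). Hspa9, the mitochondrial Hsp70, had −0.19 (SE 0.11), and Dnaja3, a mitochondrial Hsp40, 0.20 (SE 0.10). The dimmer probe of Hspa9 had −0.04 (SE 0.15) and that of Dnaja3 −0.02 (SE 0.12), each with overlapping groups.

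Counted by probe, 14 of the 18 heat shock probes were lower and 4 higher in KO, and 54.8% of all probes were lower. At an unadjusted p under 0.05 there were 2 lower and 0 higher, against 5.19% and 8.85% of all probes, or 14% in either direction. Separate groups were seen in 5 for lower, 3 of them of Hspe1, and in 0 for higher, against 26.9% and 22.4% of all probes, or 49.4% in either direction. Probes of 1 gene share their transcript and are not independent of each other.

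Further cytosolic chaperones and co-chaperones were mostly lower by small amounts. Of 32 listed, 31 were measured, with a median log2 difference of −0.09 (−0.0079 under spike-in scaling); 25 were lower, against 63.9% of all genes. Their groups were separate in 14 for lower and 2 for higher, against 32.2% and 13.8% of all genes. At an unadjusted p under 0.05 there were 2 lower and 0 higher, against 5.65% and 3.16%. These 2 were Hspa12a, a distant Hsp70 relative enriched in neurons, at −0.40 (SE 0.11; limma adjusted p 0.293), and Cryab, a small heat shock protein abundant in oligodendrocytes, at −0.31 (SE 0.10; limma adjusted p 0.328). Hspb8, the small heat shock protein that works with Bag3, followed with −0.41 (SE 0.18; limma adjusted p 0.401). Oligodendrocyte markers were lower in KO as well, 8 of 8 with a median of −0.20, with mean log2 signals over the list of 5.03 and 4.83 in controls 1 and 2 versus 4.52 and 4.86 in KO 1 and KO 2. Their part in the Cryab value was not tested. The CCT chaperonin, the cytosolic ring that folds actin and tubulin, had a median of −0.04 over 8 genes, and 0.043 under spike-in scaling. Of these Cct3 was lowest at −0.30 (SE 0.11; limma adjusted p 0.353), followed by Cct6a at −0.15 and Cct7 at −0.07, the last within its SE of 0.12. The 2 dimmer probes of Cct3 differed by −0.09 and −0.12, and the dimmer probe of Cct6a by −0.30 (SE 0.15). On each of these dimmer probes both KO values lay below both controls.

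The ER chaperones gave the contrast. Over 17 genes the median log2 difference was 0.38, with 14 higher and 3 lower. At an unadjusted p under 0.05 there were 5 higher (Hspa5, Pdia6, Sdf2l1, Manf and Calr) and 0 lower, against 3.16% and 5.65% of all genes, and 0 passed the adjusted threshold. Separate groups were seen in 12 for higher and 1 for lower, against 13.8% and 32.2% of all genes. Hspa5 had log2 signals of 4.69 and 4.79 in controls 1 and 2 versus 5.73 and 5.38 in KO 1 and KO 2. Both knockouts lay above both controls, by 0.82 on average (SE 0.16; 95% interval 0.39 to 1.24; limma adjusted p 0.273). Pdia6, a disulfide isomerase, was higher by 0.73 (SE 0.15; limma adjusted p 0.273) and Sdf2l1, a partner of ER Hsp40, by 1.03 (SE 0.27; limma adjusted p 0.286). For 9 of the 10 heat shock genes the upper bound of the 95% interval lay below the 0.82 of Hspa5, the exception being Hspa1b at 1.11. Hspb1 fell below it only narrowly (0.815 against 0.816). The estimate for Hspa5 on its brightest probe has its own interval, 0.39 to 1.24, which overlapped those of Hspa1a (upper bound 0.72), Hspb1 and Hspa1b. On the dimmer Hspa5 probes the lower bounds were 0.24 and 0.20. The lower bound of 0.20 also lay under the upper bounds of Hspa8 (0.32), Dnajb1 (0.25), Hsp90aa1 (0.22), Hsf1 (0.38) and Bag3 (0.23). It lay above those of Hsph1 (0.16) and Hspe1 (0.14). These lists were chosen with earlier results of the same arrays known, and the difference between the list medians was not tested.

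**Figure D3:**
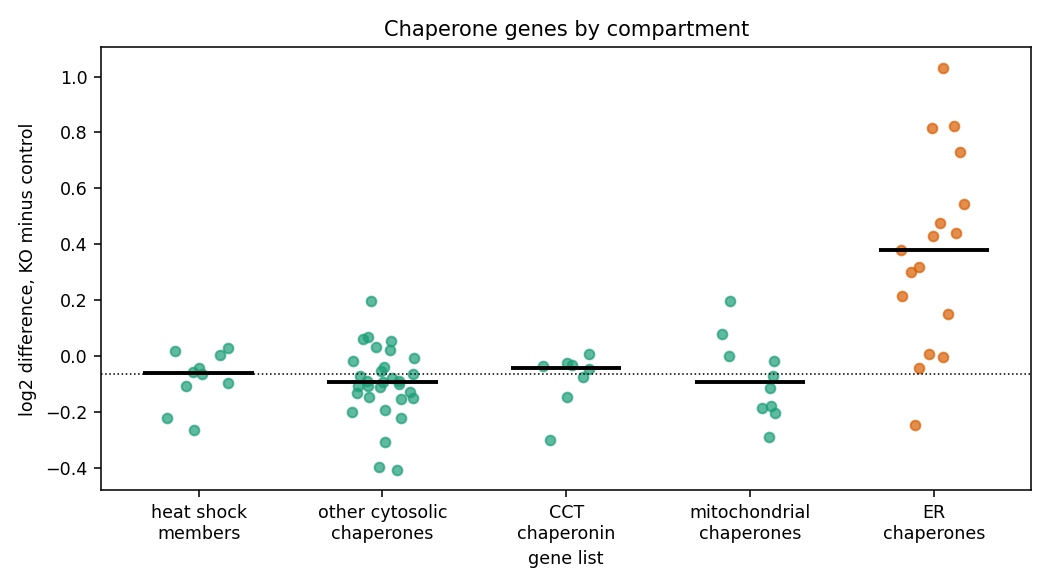
Log2 difference, KO minus control, for each gene of 5 chaperone lists (brightest probe); bars are list medians and the dotted line is the median of all genes (−0.06). The ER chaperones have a median of 0.38 and the other lists lie between −0.09 and −0.04.

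Paralogues of both compartments, picked after their values were seen, were set against each other within each array, which removes any scaling of the array. The gap between Hspa5 and Hspa8, with the control mean set to 0, was −0.10 and 0.10 in controls 1 and 2 versus 0.91 and 0.69 in KO 1 and KO 2, a shift of 0.80 on the log2 scale. The gap between Hsp90b1 (Grp94, the Hsp90 of the ER) and Hsp90aa1 was −0.10 and 0.10 in controls 1 and 2 versus 0.36 and 0.49 in KO 1 and KO 2, a shift of 0.43. In both pairs the KO samples lay above the controls. A two-sided exact permutation test gave p = 0.333 for each of the 2 pairs, which is the smallest p that 2 against 2 samples allow, so neither shift could pass the threshold. The shifts are a description, and a ratio within an array does not say which gene moved.

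The KO samples differed from each other more than the controls did. The gap between both KO arrays exceeded the gap between both control arrays in 9 of the 10 heat shock genes, against 58.1% of all genes, and KO 1 was above KO 2 in 9 of 10, against 50.4%. Most other chaperone lists had the same order. KO 1 was above KO 2 in 8 of 8 CCT genes, 15 of 17 ER chaperones and 22 of 31 further cytosolic chaperones. Mitochondrial chaperones had this order in 6 of 10, nearer the 50.4% of all genes. KO 2 lay below the control mean in 8 of 8 CCT genes, 28 of 31 further cytosolic chaperones and 6 of 10 mitochondrial chaperones. Of all genes, 61.5% lay below it. The gap was widest for Hspa1b (1.14 on the log2 scale), Hspb1 (0.84) and Hspa1a (0.73), and was 0.14 for the constitutive Hspa8. KO 2 had the lowest of the 4 values in 8 of 10 members, against 33.5% of all genes. Against the control mean, the heat shock median was 0.05 for KO 1 and −0.23 for KO 2, where the ER chaperone median was 0.57 and 0.19. Over all genes this median was −0.06 for KO 1 and −0.06 for KO 2. Above the control mean lay 15 of 17 ER chaperones in KO 1 and 13 of 17 in KO 2, and 7 of 10 heat shock genes in KO 1 and 0 of 10 in KO 2. Of all genes, 38.0% lay above it in KO 1, and 61.5% lay below it in KO 2. Without KO 1, the log2 differences of Hspa1b, Hspb1 and Hsph1 were −0.54, −0.42 and −0.45. Without KO 2 they were 0.60, 0.42 and −0.08. The direction for Hspa1b and Hspb1 thus rested on which KO sample was read, while Hsph1 was lower both times. Immediate early genes, which respond to handling and activity within minutes, were also higher in KO 1 than in KO 2, in 9 of 10 with a median of 0.38. Their mean log2 signal was −0.28 and 0.09 in controls 1 and 2 versus 0.20 and −0.15 in KO 1 and KO 2, and their part in the spread of the heat shock genes was not tested.

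**Figure D4:**
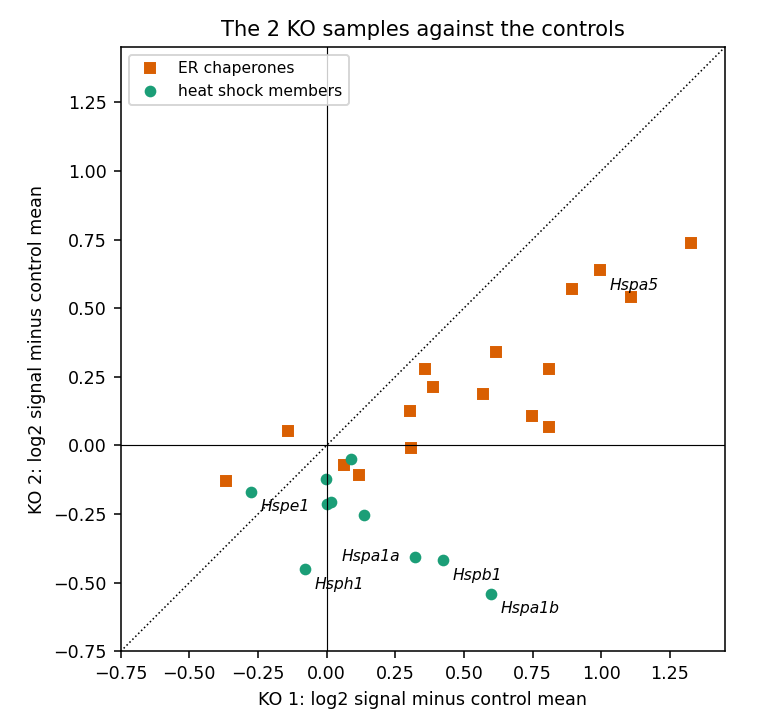
Log2 signal minus the control mean in KO 1 (horizontal axis) and KO 2 (vertical axis) for the 10 heat shock genes and 17 ER chaperones; the dotted line marks equal values. All 10 heat shock genes lie below 0 in KO 2, whereas 13 of 17 ER chaperones lie above 0 there and 15 of 17 in KO 1. Of all genes tested, 61.5% lie below 0 in KO 2 and 38.0% above 0 in KO 1.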

How the data were processed

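Total RNA (150 ng) from 2 control and 2 KO cerebella was labelled with Cy3, per the labels' protocols. The deposited scanner files hold intensity values from Agilent Feature Extraction, version 12.1.1.1 per the file headers and 10.7.1.1 per the submitters' processing notes; the processed signal is background subtracted and not normalized between arrays. The authors' deposited series table holds log2 values (column medians 0.0071, −0.19, −0.16 and −0.22). Differences between its columns equalled those of the scanner values, less a constant per array, within 0.01 for 100% of 14116 bright probes; the value each probe was centred on is unknown. Flag columns of other kinds are described in the file headers.

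Spots of the same probe were averaged as log2 processed signal after control spots and outlier-flagged spots were removed, less the 75th percentile of their array. A probe was kept where both arrays of either group called it well above background, 37516 of 56559. Of 35886 probes with a RefSeq accession, 32994 were named through a RefSeq table (GRCm38.p6). The KO minus control difference was fitted with limma 3.58.1 under R 4.3.3 (lmFit, eBayes, no covariates, 4.35 degrees of freedom), with Benjamini-Hochberg adjustment over all kept probes, and checked on simulated data. A gene was read on its brightest probe. Besides the 10 heat shock genes, the text names the 3 genes of each chaperone list with the smallest p, Derl2, Hspd1, Hsp90ab1 and Hspa5. Manf, Calr, Hsp90b1 and the comparison of paralogue pairs were picked after the values were seen. The members and lists were chosen with earlier results of these data known. Alternatives covered normalization, background correction, filters, flagged and patch spots, the variance model, the replicate number as a block, each sample left out, and averaging the probes of a gene. No slide effect could be fitted, since all arrays share 1 slide.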

Additional observations from a re-analysis of the deposited data

How the results depend on the processing

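Across 16 alternatives, 160 values of the 10 heat shock genes were computed; 0 passed the adjusted threshold and 16 changed sign, in the 8 genes named next. Without a sample in turn, the differences ran from −0.41 to 0.32 for Hspa1a, −0.54 to 0.60 for Hspa1b, −0.051 to 0.088 for Hspa8, −0.21 to 0.014 for Dnajb1, −0.21 to 0.0024 for Hsp90aa1, −0.42 to 0.42 for Hspb1 and −0.25 to 0.14 for Hsf1. Scaling to spike-in probes put Hspa1a at 0.042, Hsf1 at 0.025 and Bag3 at 0.021; the mean of all probes put Hspa8 at −0.0074, and scaling to the median of probes well above background put Hspb1 at −0.0020. Hsph1 and Hspe1 kept their sign throughout, although Hspe1 ran from −0.35 without control 1 to −0.095 without control 2.

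The median of the heat shock genes ran from −0.23 to 0.051 with a sample left out, that of the ER chaperones from 0.19 to 0.57, that of other cytosolic chaperones from −0.15 to −0.041, that of CCT from −0.10 to 0.016 and that of mitochondrial chaperones from −0.10 to −0.069. Under spike-in scaling the medians of other cytosolic, CCT and mitochondrial chaperones were −0.0079, 0.043 and −0.0095, since it moved the median of all genes to 0.02; the mitochondrial median was −0.044 after quantile normalization and −0.12 under normexp with an offset of 50. Of the genes at an unadjusted p under 0.05, 35.9% were higher in KO, against 64.3% under spike-in scaling.

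Heat shock genes are not counted by unadjusted p with a sample left out, where the lone sample shows no spread of its own. Without KO 1, Hspa1b and Hspb1 stood at −0.54 and −0.42, and without KO 2 at 0.60 and 0.42. Otherwise, heat shock genes at an unadjusted limma p under 0.05 numbered 0, but 1 (Hspe1, lower) with the mean of all probes. In that setting 1063 of 16524 genes were lower at this threshold. Those with separate groups numbered 2, but 1 after quantile normalization, 0 under spike-in scaling and 3 to 9 with a sample left out. With 1 array against 2, groups are separate whenever the lone value lies above or below both others, which is easier to meet. The range of 3 to 9 therefore cannot be compared with the 2 found with all samples. Shares of all genes with separate groups are not given for these settings. Over all probes, 0 passed the adjusted threshold; 1 did under quantile normalization, scaling to probes well above background, spike-in scaling or omission of patch spots, 2 under normexp, 4 under an intensity trend with robust variances, and 0 to 91 with a sample left out, the 91 without control 2. Probes at an unadjusted p under 0.05 numbered 5267, and 2910 to 4528 with a sample left out. With the replicate number as a block the count was 6072 and the heat shock median stayed −0.06; the numbers are not stated to pair the samples, and the deviations of samples with the same number correlated at 0.12 across probes. A lone sample of a group is assumed to vary like the other group. With 2 arrays a group precision is low; all heat shock spots were well above background, but normexp moved Bag3 from −0.06 to −0.16.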
